A study of Mus musculus with 12 samples.

Results

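The subunits of the oxidative phosphorylation system were followed across 12 bulk RNA-seq libraries of mouse skin. Members were taken by gene symbol: 123 symbols began with a prefix of the complex I (Ndufa, Ndufb, Ndufc, Ndufs, Ndufv), complex II (Sdha to Sdhd), complex III (Uqcr), complex IV (Cox4 to Cox8), ATP synthase (Atp5) or mitochondrial genome (mt-Nd, mt-Co, mt-Atp, mt-Cytb) families. Of these, 9 carried the pseudogene mark -ps and 4 had under 10 counts over all libraries, which left 110 members of the 53465 gene identifiers in each library. They comprised 80 nuclear-encoded subunits, 11 subunits encoded in mitochondrial DNA, 13 assembly factors that share the prefixes, 4 annotated pseudogenes and 2 other genes, Atp5s and Ndufa4l2. The 4 left out were mt-Atp8 and mt-Nd4l, with 3 counts each, and Cox7b2 and Cox8c, with none in any library.

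The groups crossed 2 Foxp3 genotypes with 2 skin sites, and each held 3 libraries. Wild-type mice (Foxp3-WT, here WT) and mice with an altered Foxp3 gene (Foxp3-DE2, here DE2, written Foxp3-E2 in the sample labels and Foxp3dExon2 in the series title) each gave an untreated site and a site that had received 6 doses of ultraviolet B light (UVB) on a shaved patch of the back flank. Foxp3 is the lineage factor of regulatory T cells, and the DE2 groups share no other stated allele or agent. Each UVB dose was 200 mJ/cm2 in the sample labels and 100 mJ/cm2 in the protocol, a difference not settled here. The sources used here do not give the age, sex or strain of the mice, whether the untreated site was shaved, or which libraries came from 1 animal. The p-values therefore rest on the spread between libraries, which may be partly technical. Since the irradiated patch was shaved, UVB cannot be told apart from shaving or from the site. Below, a change after UVB means the irradiated against the untreated site.

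Oxidative phosphorylation passes electrons from NADH through complex I (NADH dehydrogenase) and from succinate through complex II (succinate dehydrogenase) to complex III (the cytochrome bc1 complex) and complex IV (cytochrome c oxidase), which reduces oxygen. The proton gradient that complexes I, III and IV build drives ATP synthase, often called complex V. Mitochondrial DNA encodes a few core subunits of complexes I, III, IV and V, while all complex II subunits and the many remaining subunits are nuclear. Skeletal and cardiac muscle are rich in mitochondria and use their own isoforms of 3 small complex IV subunits, Cox6a2, Cox7a1 and Cox8b, in place of the widely expressed Cox6a1, Cox7a2 and Cox8a; brown fat also expresses Cox7a1 and Cox8b. In mice a sheet of skeletal muscle, the panniculus carnosus, lies under the skin of the trunk.

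Libraries held 2809142 to 4741726 counts. Several tissue markers differed between groups. A list of 23 skeletal muscle genes, none of them members, took 8.17% to 14.9% of counts in untreated DE2 libraries, 4.12% to 5.17% in untreated WT, 1.93% to 7.85% in irradiated WT and 3.40% to 4.18% in irradiated DE2 libraries, and none of the 23 was at 0 in any group. A list of 15 hair matrix and shaft genes took 0.0135% to 0.0766% of counts in untreated DE2 and 0.946% to 3.17% in the other groups. White adipocyte markers took 0.125% to 0.414% of counts in untreated DE2 and 0.107% to 0.282% in the other groups, melanocyte markers 0.00172% to 0.00492% and 0.0603% to 0.207%, and leukocyte markers 0.472% to 0.511% in irradiated DE2 and 0.0257% to 0.101% elsewhere. Most of the leukocyte sum in irradiated DE2, 4685 to 5182 CPM, was S100a8 (1908, 2167 and 2356 CPM) and S100a9 (2001, 2126 and 1987 CPM). Of the 10 leukocyte genes, 4 were called higher in irradiated than in untreated DE2 and 0 lower. Epidermal keratinocyte markers were detected in all groups, at 2.12% to 2.67% of counts in irradiated DE2 and 0.691% to 1.63% elsewhere. Most of that sum in irradiated DE2 was Krt14, at 13232, 17250 and 16171 CPM of 21084 to 26169 CPM. The 10 keratinocyte genes did not move together: 3 were higher and 4 lower in irradiated than in untreated DE2. In bulk tissue, more cells of a type and more RNA per cell cannot be told apart. Foxp3 itself had 8 counts in all, in 2 irradiated DE2 libraries, so it gave no check of the genotype labels.

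At the untreated site, most of the respiratory chain was higher in DE2 than in WT skin. Of 104 members that passed the filter on low counts, 82 were higher and 2 lower in DE2 (edgeR's quasi-likelihood test, adjusted p below 0.05), against 11.8% of all 15126 genes tested that were higher and 11.2% that were lower. The median log2 fold change of the tested members was 0.93, against 0.03 over all genes tested. The nuclear members together took 3.27%, 3.73% and 4.09% of all counts in the untreated DE2 libraries and 2.49%, 2.45% and 2.35% in the untreated WT libraries. The muscle marker list was higher in the same libraries, with 20 of its 23 genes called higher and a median log2 fold change of 1.96. With the mean level of these muscle markers as a covariate in the fit, 0 of 104 members passed (22 at an unadjusted p under 0.05) and their median log2 fold change was 0.33, while 2.8% of all genes still passed. This covariate, a mean log2 CPM, was at 10.93, 12.07 and 12.20 in untreated DE2 and at 9.88, 9.64 and 10.03 in untreated WT. Group and covariate therefore cannot be fully told apart in this fit. With libraries scaled by total counts in place of TMM factors, 42 members were higher and 3 lower, and the members' median was 0.50 beside an all-gene median of -0.37. That is 43.3% of members beside 25.1% of all genes, where the TMM fit called 80.8% beside 23%. Without untreated WT replicate 1, 2 or 3, the 84 calls became 55, 52 and 49, beside 14.9%, 13.4% and 15.7% of all genes.

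**Figure D1:**
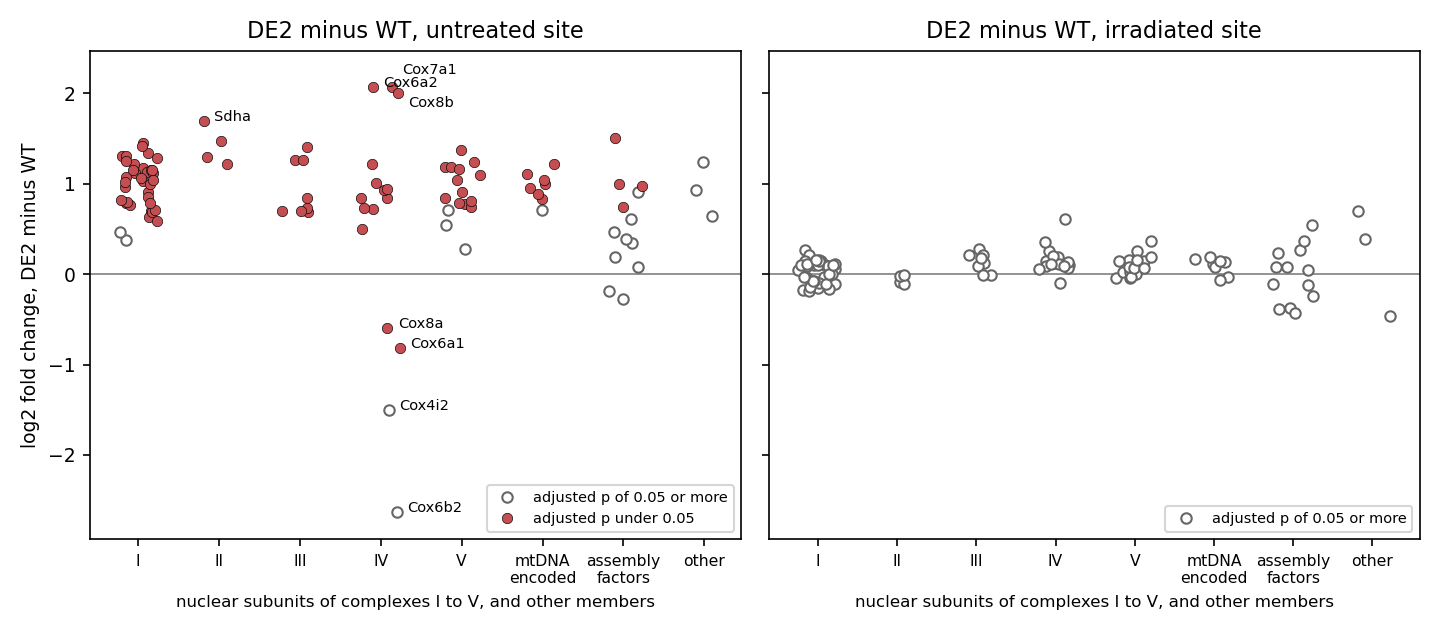
Log2 fold change of each tested member, DE2 minus WT, at the untreated site (left) and the irradiated site (right), by complex for nuclear subunits and then for subunits encoded in mitochondrial DNA, assembly factors and other members. Filled points passed an adjusted p of 0.05: 84 of 104 at the untreated site and 0 of 104 at the irradiated site.

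Complex I, the entry point for NADH, had 36 tested nuclear subunits, of which 34 were higher in untreated DE2 skin (median log2 fold change 1.03). Here and for the other complexes and the mitochondrial genome below, 11.8% of all genes were higher and 11.2% lower. The limits given above for the scaling and the muscle covariate apply to each of these counts. Ndufs1 (ENSMUSG00000025968, chromosome 1, 63143596 to 63176833, minus strand, GRCm38), the iron-sulfur subunit at the electron input end of the complex, was at 156, 165 and 185 CPM (read counts after TMM scaling of the library totals) in untreated WT and at 347, 465 and 573 CPM in untreated DE2 libraries. Every DE2 library lay above every WT library, at a log2 fold change of 1.45 ± 0.25 (approximate standard error, 3 v 3 libraries, adjusted p = 0.00104). Ndufa9, an accessory subunit near the junction of the complex's arms, was at 169, 173 and 220.2 CPM in untreated WT and at 311, 499 and 576 CPM in untreated DE2. The groups did not overlap, and the log2 fold change was 1.30 ± 0.22 (adjusted p = 0.000984). Ndufa1, the complex I nuclear member with the highest level per length, was at 459 CPM per kb of exon in untreated WT and at 794 in untreated DE2, a log2 fold change of 0.79 ± 0.19 (adjusted p = 0.00804). The 2 that did not pass were Ndufb2, at 0.38 (adjusted p = 0.36), and Ndufs6, at 0.46 (adjusted p = 0.11); they are named because they are the exceptions.

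Complex II oxidizes succinate and is also an enzyme of the citric acid cycle, and all 4 of its subunits were higher in untreated DE2 skin (median log2 fold change 1.38). Sdha (ENSMUSG00000021577, chromosome 13, 74322254 to 74350280, minus strand), its flavoprotein, was at 441, 342 and 545 CPM in untreated WT and at 973, 1617 and 1697 CPM in untreated DE2 libraries. That is a log2 fold change of 1.69 ± 0.29 (adjusted p = 0.000896), the largest among members outside complex IV. Sdhd, a membrane anchor of the complex, was at 197, 179 and 196 CPM in WT and at 425, 519 and 637 CPM in DE2, a log2 fold change of 1.47 ± 0.23 (adjusted p = 0.000446). In both genes untreated DE2 replicate 1 was the lowest of its group and still above all WT libraries.

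Complex III passes electrons from ubiquinol to cytochrome c, and all 8 of its nuclear subunits were higher in untreated DE2 (median log2 fold change 0.78). Uqcrfs1, the Rieske iron-sulfur protein, was at 291, 328 and 307 CPM in untreated WT and at 591, 879 and 992 CPM in untreated DE2 (log2 fold change 1.41 ± 0.26, adjusted p = 0.00158). Uqcrc1, a core subunit, was at 516, 582 and 533 CPM in WT and at 971, 1372 and 1577 CPM in DE2 (1.27 ± 0.22, adjusted p = 0.001). The small subunit Uqcr11 had the highest level per length of the nuclear members of this complex, 551 CPM per kb in untreated WT and 897 in untreated DE2, with a smaller log2 fold change of 0.70 ± 0.21 (adjusted p = 0.0248).

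ATP synthase makes ATP from the proton gradient, and 13 of its 16 tested nuclear subunits were higher in untreated DE2 skin (median log2 fold change 0.88). Atp5b, the catalytic beta subunit, was at 1801, 1899 and 2156 CPM in untreated WT and at 3298, 4686 and 5345 CPM in untreated DE2, with a log2 fold change of 1.19 ± 0.25 (adjusted p = 0.00341). The gene also had the highest level per length of the nuclear members of this complex, 461 CPM per kb in untreated WT. The membrane ring subunit c is encoded by 3 genes that give the same mature protein. Atp5g1 was at 232, 237 and 233 CPM in untreated WT and at 479, 605 and 739 CPM in untreated DE2, a log2 fold change of 1.38 ± 0.21 (adjusted p = 0.000432). Atp5g3 was higher by 0.74 ± 0.22 (adjusted p = 0.025), and Atp5g2, the least abundant of the 3 per length at 16.8 CPM per kb in untreated WT, had a log2 fold change of 0.71 ± 0.25 and did not pass (adjusted p = 0.0558). Atp5h, at 0.54 (adjusted p = 0.064), and Atp5l, at 0.28 (adjusted p = 0.65), were the other 2 that did not pass.

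The mitochondrial genome's own subunits were higher in untreated DE2 as well, 7 of the 8 tested, with a median log2 fold change of 0.97. On a scale per length, 5 of them were the most abundant members in untreated WT: mt-Nd1 averaged 3266, mt-Cytb 3146, mt-Co1 2762, mt-Nd2 1329 and mt-Nd4 951 CPM per kb. mt-Nd5 (576), mt-Nd6 (539) and mt-Nd3 (121 CPM per kb) were below the highest nuclear members, Cox6a1 (594) and Cox6b1 (586 CPM per kb). The length is that of all annotated exons merged, such as 4237 bases for Atp5b and 1378 for mt-Nd4. It can exceed a single transcript, so the order of nuclear and mitochondrial members depends on the annotation. mt-Cytb (ENSMUSG00000064370, mitochondrial genome, 14145 to 15288, plus strand), the cytochrome b of complex III, was at 3769, 3431 and 3597 CPM in untreated WT and at 5201, 7555 and 8138 CPM in untreated DE2, a log2 fold change of 0.95 ± 0.27 (adjusted p = 0.0196). mt-Co1, the catalytic subunit of complex IV, was at 4620, 3803 and 4381 CPM in WT and at 5774, 9358 and 10367 CPM in DE2 (0.99 ± 0.29, adjusted p = 0.0219). In both genes the groups did not overlap, and DE2 replicate 1 lay nearest to WT.

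Among the complex I subunits of the mitochondrial genome, the core subunit mt-Nd5 differed most, at 1248, 789 and 1113 CPM in untreated WT and 1886, 2620 and 2822 CPM in untreated DE2 (log2 fold change 1.22 ± 0.30, adjusted p = 0.00939). mt-Nd2 was higher by 1.10 ± 0.29 (adjusted p = 0.0135), mt-Nd4 by 1.04 ± 0.26 (adjusted p = 0.00986) and mt-Nd1 by 0.84 ± 0.25 (adjusted p = 0.0268). mt-Nd6, the one subunit gene on the other strand, was higher by 0.88 ± 0.23 (adjusted p = 0.0122). mt-Nd3 overlapped between the groups, at 49.4, 37.1 and 39.6 CPM in WT against 46.6, 74.9 and 84.7 CPM in DE2, and did not pass (0.71 ± 0.28, adjusted p = 0.0828). The members encoded in mitochondrial DNA together took 2.18%, 2.60% and 2.64% of counts in untreated DE2 and 1.90%, 1.54% and 1.64% in untreated WT. The 2 mitochondrial ribosomal RNA genes took 0.623%, 0.664% and 0.647% of counts in untreated DE2 and 0.714%, 0.649% and 0.468% in untreated WT, overlapping ranges, and neither passed the test (mt-Rnr1 0.43 ± 0.24, adjusted p = 0.219; mt-Rnr2 0.53 ± 0.27, adjusted p = 0.18).

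**Figure D2:**
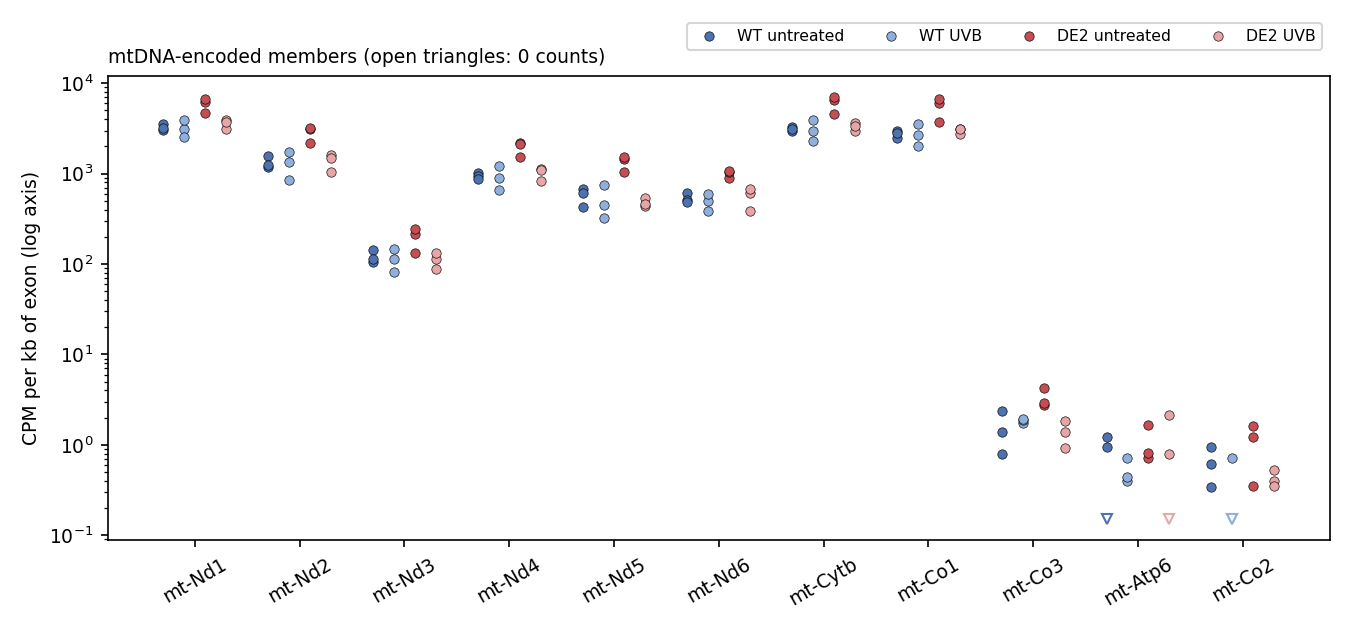
Level of each member encoded in mitochondrial DNA per library, in CPM per kb of exon on a log axis, coloured by group; open triangles mark libraries with 0 counts. The 8 genes on the left lie above 70 CPM per kb in every library and mt-Co3, mt-Atp6 and mt-Co2 below 5, and untreated DE2 libraries are the highest for most of the 8.

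A run of adjacent mitochondrial genes was nearly without counts in every group. Over the 12 libraries together, mt-Co2 (mitochondrial genome, 7013 to 7696) had 19 counts, mt-Atp6 (7927 to 8607) had 25 and mt-Co3 (8607 to 9390) had 72, whereas mt-Co1 (5328 to 6872), the next subunit gene on the 5′ side, had 250109. These 3 genes encode core subunits of complexes IV and V, and they failed the filter and were not tested. Of the 50-base windows of their transcripts, 100%, 99.5% and 99.9% in that order also occur exactly in another annotated gene, in each case a predicted gene (Gm28661, Gm10925 and Gm28437) that itself had 799, 301 and 802 counts. The same share was 98% for mt-Nd3, 62.2% for mt-Nd4 and 51.1% for mt-Co1, which were counted at 2186, 77086 and 250109, and 0% for mt-Nd1, mt-Nd6 and mt-Cytb. Of the genes left out for low counts, mt-Atp8 (7766 to 7969) lies within the run and had 3 counts with 0% of windows shared. The other, mt-Nd4l, lies outside the run and had 3 counts with 98.8% shared. The cause of the low counts was not tested. The sources used here do not say how reads with several matches were counted. The deposited counts of mt-Co2, mt-Atp6, mt-Co3 and mt-Nd3 are uncertain as levels of the transcripts. So are those of mt-Nd4 and mt-Co1, which have smaller shares of windows in other genes. Among nuclear members, Atp5g2 had 38.3% and Uqcrc2 17.6% of windows in another gene, and 43 of all members, nuclear and mitochondrial, had none.

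Complex IV showed opposite changes within 2 of its 3 muscle isoform pairs. Of its 16 tested nuclear subunits, 12 were higher and 2 lower in untreated DE2 skin. The 3 muscle isoforms had the largest rises of all members, and the 2 members that fell were Cox6a1 and Cox8a, the widely expressed partners of 2 of them. The promoters of the pairs are shown because the widely expressed members did not follow the muscle forms alike: Cox6a1 and Cox8a fell and Cox7a2 rose. Printed are the 5 of the 6 genes matched in the promoter table; Cox6a2 is named only. Each is the 250 bases before the start in RefSeq on GRCm38.p6, written 5′ to 3′ on the gene's strand, with matches to any of 4 searched motifs in capitals:
Cox6a1: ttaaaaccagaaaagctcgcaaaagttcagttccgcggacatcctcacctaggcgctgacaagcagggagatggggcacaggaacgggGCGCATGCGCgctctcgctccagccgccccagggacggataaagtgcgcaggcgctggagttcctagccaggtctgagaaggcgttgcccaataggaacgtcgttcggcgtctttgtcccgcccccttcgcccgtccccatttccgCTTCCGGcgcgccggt
Cox8a: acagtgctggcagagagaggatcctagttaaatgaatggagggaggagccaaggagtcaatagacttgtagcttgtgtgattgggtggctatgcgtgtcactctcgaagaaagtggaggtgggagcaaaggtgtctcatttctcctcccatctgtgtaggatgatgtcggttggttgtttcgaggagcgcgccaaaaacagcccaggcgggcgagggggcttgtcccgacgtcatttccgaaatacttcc
Cox8b: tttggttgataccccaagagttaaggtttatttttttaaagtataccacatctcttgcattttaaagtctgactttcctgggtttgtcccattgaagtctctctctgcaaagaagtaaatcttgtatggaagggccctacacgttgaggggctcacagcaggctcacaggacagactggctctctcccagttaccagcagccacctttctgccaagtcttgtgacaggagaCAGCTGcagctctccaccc
Cox7a2: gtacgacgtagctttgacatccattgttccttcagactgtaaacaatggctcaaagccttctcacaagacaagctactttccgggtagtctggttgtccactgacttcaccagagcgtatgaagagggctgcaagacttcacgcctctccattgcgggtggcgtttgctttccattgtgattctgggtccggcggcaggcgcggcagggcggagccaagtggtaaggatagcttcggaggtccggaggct
Cox7a1: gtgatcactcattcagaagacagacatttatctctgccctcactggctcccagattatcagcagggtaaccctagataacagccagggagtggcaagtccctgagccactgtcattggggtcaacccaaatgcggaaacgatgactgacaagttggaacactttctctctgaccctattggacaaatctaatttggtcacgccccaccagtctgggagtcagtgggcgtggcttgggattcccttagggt

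The Cox6a1 window (chr5:115348959-115349208, minus strand) holds overlapping matches to the NRF1 core GCATGCGC on both strands, beginning 162 and 160 bases before the start, and a match to the ETS or GABP motif CCGGAAG beginning 16 bases before it. NRF1 and GABP are transcription factors known for regulating nuclear genes of the respiratory chain. The Cox8b window (chr7:140900447-140900696, minus strand) holds the E-box CAGCTG, a sequence bound by muscle regulatory factors among others, 19 bases before the start. The windows of Cox8a (chr19:7217617-7217866, minus strand), Cox7a2 (chr9:79759854-79760103, minus strand) and Cox7a1 (chr7:30183921-30184170, plus strand) hold none of these letters, nor AAGGTCA, the motif of estrogen-related receptors. Over the 82 windows of the 77 members with an entry, 11% hold the NRF1 core, 19.5% CCGGAAG, 6.1% AAGGTCA and 7.32% CAGCTG, on either strand. Over all 32851 windows of the table these shares are 2.26%, 6.91%, 4.08% and 13%. A match is a description of the letters and was not tested as a binding site.

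Cox6a2 (ENSMUSG00000030785, chromosome 7, 128205435 to 128206387, minus strand) was at 292, 240.3 and 324 CPM in untreated WT and at 770.2, 1258 and 1571 CPM in untreated DE2, a log2 fold change of 2.07 ± 0.42 (adjusted p = 0.00301). Cox6a1 (ENSMUSG00000041697, chromosome 5, 115345642 to 115348981, minus strand) was at 407, 459 and 386 CPM in untreated WT and at 275, 187 and 246 CPM in untreated DE2, so it fell by 0.82 on the log2 scale (standard error 0.20, adjusted p = 0.00929). No library of one group lay within the range of the other in either gene. Cox6a2 made up 41.8%, 34.4% and 45.7% of the pair's counts in untreated WT and 73.7%, 87.1% and 86.4% in untreated DE2.

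Cox8b (ENSMUSG00000025488, chromosome 7, 140898945 to 140900446, minus strand) and Cox8a (ENSMUSG00000035885, chromosome 19, 7215153 to 7217616, minus strand) gave the same picture. Cox8b was at 113, 96.7 and 100.2 CPM in untreated WT and at 318, 446 and 482 CPM in untreated DE2 (log2 fold change 2.00 ± 0.33, adjusted p = 0.000708). Cox8a was at 308, 312 and 279 CPM in WT and at 209, 165 and 218 CPM in DE2, and fell by 0.60 on the log2 scale (standard error 0.18, adjusted p = 0.0264). The muscle form's part of the pair's counts was 25.7% ± 1.75 (SD, n = 3) in untreated WT and 67.4% ± 6.51 in untreated DE2, or 37.3% and 77.9% after division by exon length.

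The third pair differed in that its widely expressed member also rose. Cox7a1 (ENSMUSG00000074218, chromosome 7, 30184144 to 30186078, plus strand) was at 78.9, 76.1 and 80.9 CPM in untreated WT and at 245, 349.9 and 397 CPM in untreated DE2 (2.07 ± 0.37, adjusted p = 0.00138). Cox7a2 was at 218, 250.3 and 219.8 CPM in WT and at 277, 326 and 371 CPM in DE2, a log2 fold change of 0.50 ± 0.17 (adjusted p = 0.0466). Cox7a1 took 25.6% ± 1.99 of the pair's counts in untreated WT and 50.1% ± 2.77 in untreated DE2. Cox7a2l, a relative that helps form supercomplexes, did not pass (0.35 ± 0.18, adjusted p = 0.184). With total counts as scaling Cox7a2 no longer passed (0.08, adjusted p = 0.759), while Cox6a1 (-1.21, adjusted p = 0.00249) and Cox8a (-1.01, adjusted p = 0.00389) stayed lower. With the muscle covariate none of the 6 isoforms passed; Cox6a2 was at 0.34 (adjusted p = 0.638), Cox8b at 0.79 (adjusted p = 0.202) and Cox6a1 at -0.45 (adjusted p = 0.47). Ucp1, the defining gene of brown fat, was at 0 in 10 libraries and below 0.3 CPM in the other 2, both untreated DE2. Other genes of a brown adipocyte list varied, and Cidea was at 5.15 to 23.9 CPM over all libraries. Ppara was at 6.31, 13.8 and 5.53 CPM in untreated DE2 and at 4.55, 3.02 and 3.53 in untreated WT. Elovl3 was at 7.28, 6.76 and 1.94 CPM in untreated DE2 and at 62.6, 67.5 and 171 in untreated WT. A part of brown fat in these changes was not tested.

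**Figure D3:**
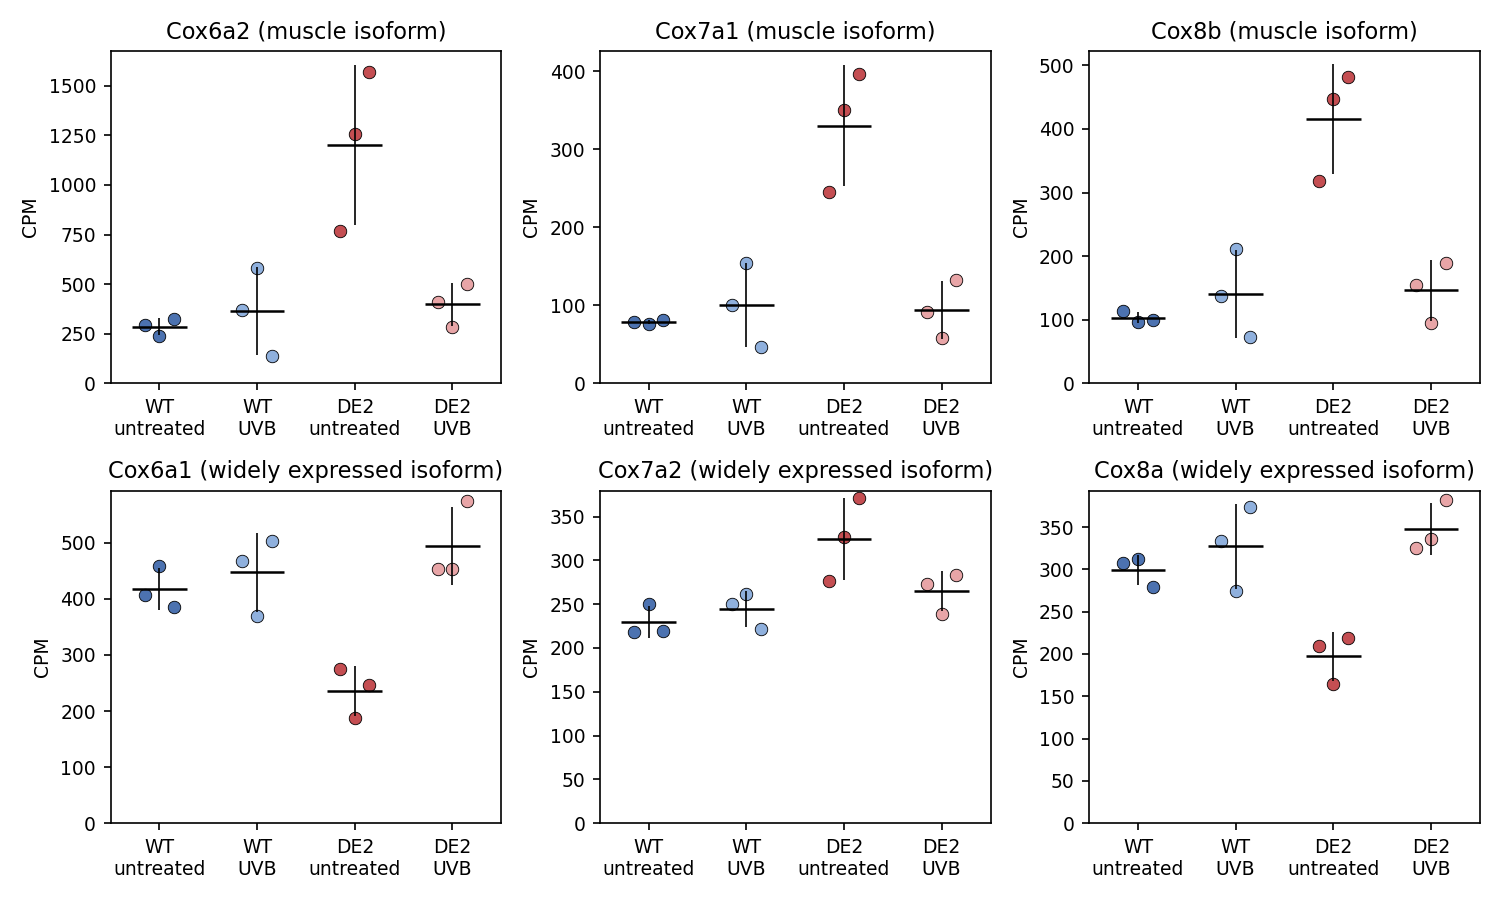
TMM-scaled CPM of the muscle isoform (top) and the widely expressed isoform (bottom) of 3 complex IV subunits in each library; points are libraries, bars the mean and lines 1 SD. The 3 untreated DE2 libraries lie above all 9 others for Cox6a2, Cox7a1 and Cox8b and below all 9 others for Cox6a1 and Cox8a, and irradiated WT replicate 2 is the highest of its group for the 3 muscle isoforms.

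Other subunits of complex IV followed the majority. Cox4i1, the widely expressed form of subunit 4, was at 498, 527 and 443 CPM in untreated WT and 731, 874 and 1017 CPM in untreated DE2 (0.84 ± 0.20, adjusted p = 0.00776). Its oxygen-responsive isoform Cox4i2 was near the limit of detection, with 5, 11 and 13 counts in untreated WT and 1, 4 and 3 in untreated DE2, and did not pass (-1.50 ± 0.86, adjusted p = 0.228). Cox6b1, a small subunit with a level per length close to that of Cox6a1 in untreated WT, was at 415, 449 and 380.4 CPM in WT and at 521, 714 and 809.8 CPM in DE2 (0.72 ± 0.21, adjusted p = 0.0221). Its testis-type isoform Cox6b2 had 25, 38 and 32 counts in untreated WT and 12, 0 and 1 in untreated DE2, at -2.63 ± 0.95, and did not pass (adjusted p = 0.0587). Ndufa4, a subunit first assigned to complex I and now placed in complex IV, was higher by 0.95 ± 0.21 (adjusted p = 0.00552), and Cox7b by 1.01 ± 0.22 (adjusted p = 0.00426).

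Assembly factors, which help build the complexes without being part of them, had 4 of 13 members higher in untreated DE2 (median log2 fold change 0.46). Beside them were 71 of 80 nuclear subunits and 11.8% of all genes. The difference between these counts was not tested. The 4 were Ndufaf5, Ndufaf1, Sdhaf4 and Sdhaf2. Ndufaf5, which modifies a complex I subunit, was at 32.3, 23.9 and 24.3 CPM in untreated WT and at 50.2, 79.7 and 99.3 CPM in untreated DE2 (1.51 ± 0.34, adjusted p = 0.00582). Some had few reads, such as Sdhaf1, at 4.37 to 8.3 CPM in the libraries of the untreated site. Below the filter were also the annotated pseudogenes Ndufa11b, Ndufb4c and Ndufs6b, and the tested one, Cox6c2, did not pass (adjusted p = 0.11).

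At the irradiated site no member passed the test between the genotypes. The count was 0 of 104 in edgeR's quasi-likelihood test, with 0 members at an unadjusted p under 0.05, and 0 also in DESeq2 and in limma voom. The background was 2.35% of all genes higher and 0.608% lower in DE2. The members' median log2 fold change was 0.09. Nuclear members took 2.45%, 2.79% and 2.23% of counts in irradiated WT and 2.50%, 2.32% and 2.75% in irradiated DE2 libraries, and the muscle markers took 3.88%, 7.85% and 1.93% and then 3.62%, 3.40% and 4.18%. Cox6a2 was at 371, 584 and 138 CPM in WT and at 412, 284 and 499 CPM in DE2. Its ranges overlapped, and the log2 fold change was 0.13 ± 0.40 (adjusted p = 0.936).

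In DE2 skin most of the system was lower at the irradiated site, in a comparison that shares the untreated DE2 libraries with the one at the untreated site. Of 104 tested members, 64 were lower and 3 higher at the irradiated than at the untreated site, against 13.4% of all genes lower and 14.4% higher. The members' median log2 fold change was -0.80, against 0.02 over all genes. By complex, the nuclear subunits called lower were 29 of 36 in complex I, 4 of 4 in complex II, 4 of 8 in complex III, 6 of 16 in complex IV and 8 of 16 in ATP synthase, with 7 of 8 of the tested members encoded in mitochondrial DNA. All 23 muscle markers were lower, at a median log2 fold change of -2.07, and with their mean level as a covariate 0 of 104 members passed (7 at an unadjusted p under 0.05), at a median of -0.16, while 5.18% of all genes still passed. That mean level did not overlap between the DE2 sites, so site and covariate cannot be fully told apart here. Markers of other cells also differed between these sites: 6 of 10 white adipocyte genes were lower (median -1.61), and 15 of 15 hair genes, 5 of 6 melanocyte genes (median 5.39) and 4 of 10 leukocyte genes (median 0.67) were higher. Of 10 epidermal keratinocyte genes, 3 were higher and 4 lower. The part of these lists in the members' changes was not tested. A covariate of hair markers left 0 of all genes called in this comparison, so it could not test the part of hair. The 67 calls became 44 and 41 without irradiated DE2 replicate 1 or 2, beside 20.4% and 20.2% of all genes.

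The members with the largest falls after UVB in DE2 came from several complexes. Cox7a1 was at 245, 349.9 and 397 CPM at the untreated and at 91.8, 57.8 and 133 CPM at the irradiated site (-1.82 ± 0.37, adjusted p = 0.00251). Sdha was at 973, 1617 and 1697 CPM and then at 452, 504 and 423 CPM (-1.64 ± 0.29, adjusted p = 0.000852). Cox6a2 fell by 1.59 (standard error 0.41, adjusted p = 0.00995) and Cox8b by 1.51 on the log2 scale (standard error 0.33, adjusted p = 0.00354). The assembly factor Ndufaf5 fell by 1.56 (standard error 0.35, adjusted p = 0.00406). The sites did not overlap in any of these 5 genes.

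Ndufs1 went from 347, 465 and 573 CPM to 147, 145 and 195 CPM, with the smallest adjusted p of the members in this comparison (-1.51 ± 0.25, adjusted p = 0.000618). mt-Nd5 fell most among the members encoded in mitochondrial DNA, to 985, 808 and 849.7 CPM (-1.47 ± 0.30, adjusted p = 0.00256), while mt-Nd1 did not pass (-0.70 ± 0.25, adjusted p = 0.0515). Atp5s, with the largest fall after Cox7a1, was not grouped here with the ATP synthase subunits. It went from 31.1, 48.7 and 44.3 CPM to 12.7, 15.2 and 9.07 CPM (-1.73 ± 0.39, adjusted p = 0.00456).

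The 3 members higher after UVB in DE2 were all in complex IV. Cox6a1 rose from 275, 187 and 246 CPM to 453, 454 and 574 CPM (1.06 ± 0.20, adjusted p = 0.00154), and Cox8a from 209, 165 and 218 CPM to 325, 336 and 382 CPM (0.82 ± 0.18, adjusted p = 0.00414). Cox4i2 rose from 1, 4 and 3 counts to 12, 15 and 19 counts (2.60 ± 0.86, adjusted p = 0.0356). The sites did not overlap in these genes. Cox6a2's part of the Cox6a pair's counts was 47.6%, 38.5% and 46.5% in irradiated DE2 libraries, and Cox8b's part of its pair 32.2%, 22% and 33.2%.

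In WT skin no member was called after UVB. The count was 0 of 104, with 1 member (Ndufa4l2) at an unadjusted p under 0.05 in edgeR and 0 calls in DESeq2 and limma voom, against 0.0198% of all genes higher and 0% lower. The members' median log2 fold change was 0.13. The spread inside the irradiated WT group was wide: replicate 2 was the highest of the 3 libraries in 91 of 104 tested members and replicate 3 the lowest in 92, and the muscle markers took 7.85% and 1.93% of counts in these 2. Cox8b shows it, at 138, 211 and 73.3 CPM in irradiated WT against 113, 96.7 and 100.2 CPM in untreated WT (0.44 ± 0.32, adjusted p = 1). In untreated DE2, replicate 1 was the lowest library in 94 of 104 members and replicate 3 the highest in 92; their muscle marker shares were 8.17% and 14.9%.

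Ndufa4l2, a hypoxia-induced relative of Ndufa4, had a lower mean level at the irradiated than at the untreated site in both genotypes, without passing the test. Untreated WT libraries were at 75, 91.4 and 87.8 CPM and irradiated WT libraries at 19.4, 78.9 and 30 CPM. In DE2 the untreated libraries were at 173, 115 and 109.6 CPM and the irradiated ones at 73.4, 74.7 and 61.3 CPM. The untreated DE2 libraries lay above all others, while the ranges of the WT sites overlapped. No comparison passed with all libraries; UVB in WT gave -0.98 ± 0.37 (adjusted p = 0.99). Without irradiated WT replicate 2, UVB in WT gave -1.78 (adjusted p = 0.0454) and genotype at the irradiated site 1.51 (adjusted p = 0.0103), both past the threshold.

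**Figure D4:**
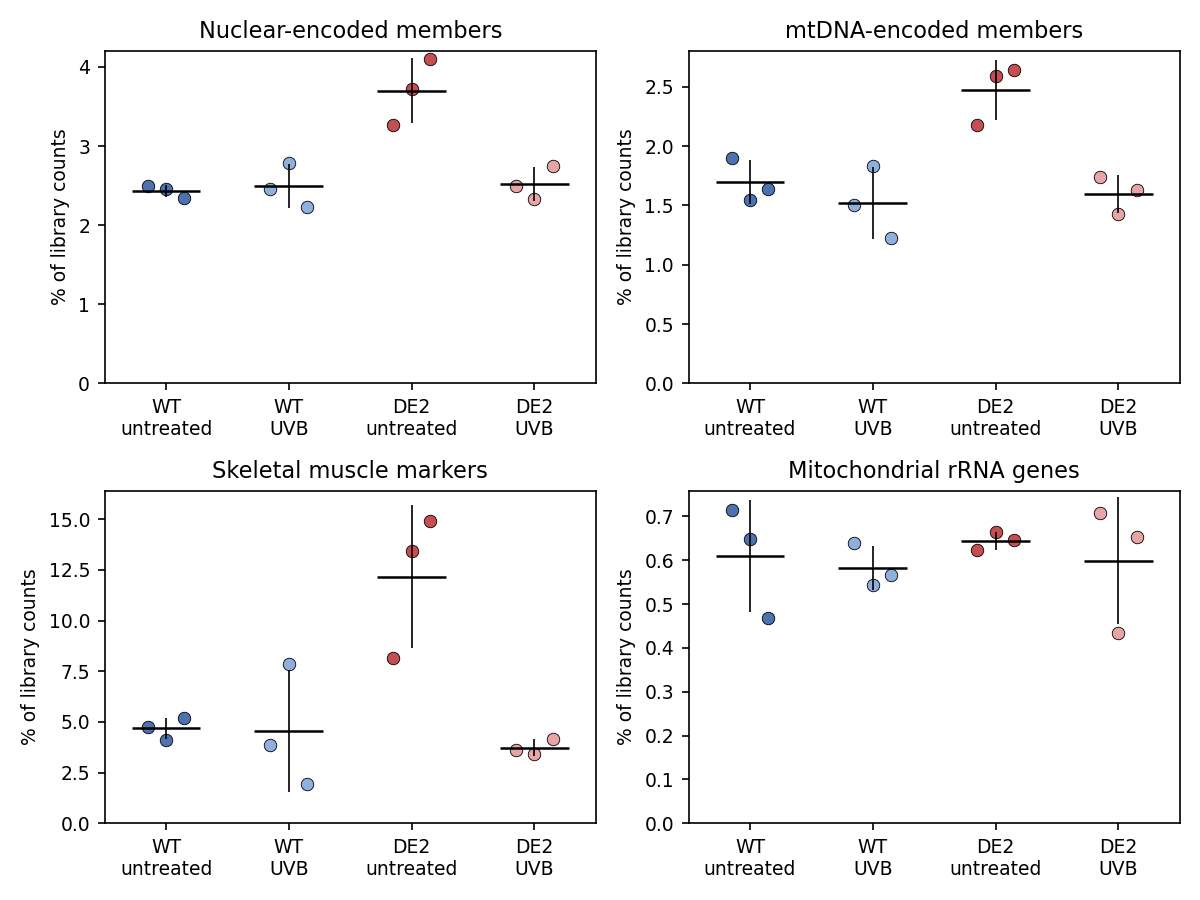
Percent of each library's counts in nuclear-encoded members, members encoded in mitochondrial DNA, 23 skeletal muscle marker genes and the 2 mitochondrial ribosomal RNA genes; points are libraries, bars the mean and lines 1 SD. The 3 untreated DE2 libraries are the highest in the first 3 panels, at 3.27% or more for nuclear members, and overlap the other groups for ribosomal RNA.

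The change from the untreated to the irradiated site differed between the genotypes for 33 of 104 members by the test of the interaction. In DE2 the change was more negative for 32 and more positive for 1. Of all genes tested, 4.84% were lower and 5.64% higher. This contrast uses all 4 groups and so repeats the libraries of the comparisons above. The median over the members was -0.86, against 0.04 over all genes. Cox7a1 had the largest difference, a log2 fold change of 0.35 ± 0.36 after UVB in WT and -1.82 ± 0.37 in DE2, which is a difference of -2.17 ± 0.51 (adjusted p = 0.0168). Ndufs1 had the smallest adjusted p, at -1.65 ± 0.35 (adjusted p = 0.00967). Cox6a1 was the 1 positive member, at 0.96 ± 0.28 (adjusted p = 0.0429).

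By complex, the interaction was called in 4 of 4 nuclear subunits of complex II, 13 of 36 of complex I, 7 of 16 of ATP synthase, 5 of 16 of complex IV and 2 of 8 of complex III, and in 0 of 8 members encoded in mitochondrial DNA (5 at an unadjusted p under 0.05). The count of 33, or 31.7% of members beside 10.5% of all genes, moved with most libraries. It was 8, 5 and 9 without untreated WT replicate 1, 2 or 3, 15 and 9 without irradiated WT replicate 1 or 2, 67, 11 and 10 without untreated DE2 replicate 1, 2 or 3, and 9, 7 and 15 without irradiated DE2 replicate 1, 2 or 3. In these fits the share of members lay near the share of all genes in several cases: 7.69%, 4.81% and 8.65% of members beside 6.46%, 5.57% and 6.49% of all genes without untreated WT replicate 1, 2 or 3, and 6.73% beside 5.98% without irradiated DE2 replicate 2. Without untreated DE2 replicate 1 it was 64.4% beside 16.5%. With total counts as scaling the count was 12, or 11.5% of members beside 10.5% of all genes, and with the muscle covariate it was 0, beside 2.01% of all genes. The members' share of interaction calls above the background therefore rests on the scaling and on single libraries.

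The remaining mitochondrial machinery was read from lists of related pathways, beside 11.8% of all genes higher and 11.2% lower in untreated DE2. At the untreated site, the citric acid cycle and pyruvate dehydrogenase, which supply NADH and succinate, had 15 of 16 genes higher in DE2 (median log2 fold change 1.35), led by Fh1, fumarase, at 1.47 ± 0.24 (adjusted p = 0.000621). Fatty acid oxidation had 9 of 12 higher (median 1.15), with Acadl, a long-chain acyl-CoA dehydrogenase, at 1.42 ± 0.24 (adjusted p = 0.000969). Carriers and transport proteins had 10 of 14 higher and 2 lower. Etfdh, which feeds electrons from fatty acid oxidation to ubiquinone, was higher by 1.39 ± 0.25 (adjusted p = 0.0012), as was Slc25a4, the ADP/ATP carrier form of muscle and heart, by 1.84 ± 0.38 (adjusted p = 0.0036). The 2 lower genes were Ucp2, an uncoupling protein relative (-1.16 ± 0.23, adjusted p = 0.00275), and Slc25a5, a widely expressed ADP/ATP carrier (-0.91 ± 0.20, adjusted p = 0.00445); Slc25a5 is named as an exception, chosen after its value was seen.

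The remaining lists hold factors that build or regulate the chain, and their counts stand beside the same 11.8% of all genes higher and 11.2% lower. Of 31 tested assembly factors with other names, 8 were higher, with Uqcc1, a complex III factor, at 1.40 ± 0.22 (adjusted p = 0.000439). Of 20 mitochondrial ribosome proteins, 4 were higher and 1, Mrpl20, lower. Of 17 regulators of mitochondrial biogenesis, 2 were higher: Esrra, an estrogen-related receptor (0.88 ± 0.25, adjusted p = 0.0193), and Ppargc1a, the coactivator PGC-1alpha (2.68 ± 0.77, adjusted p = 0.0219). That last share, at 2 of 17, is near the 11.8% of all genes. Tfb2m, a mitochondrial transcription factor and the third of that list by p, did not pass (1.03 ± 0.38, adjusted p = 0.064).

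**Figure D5:**
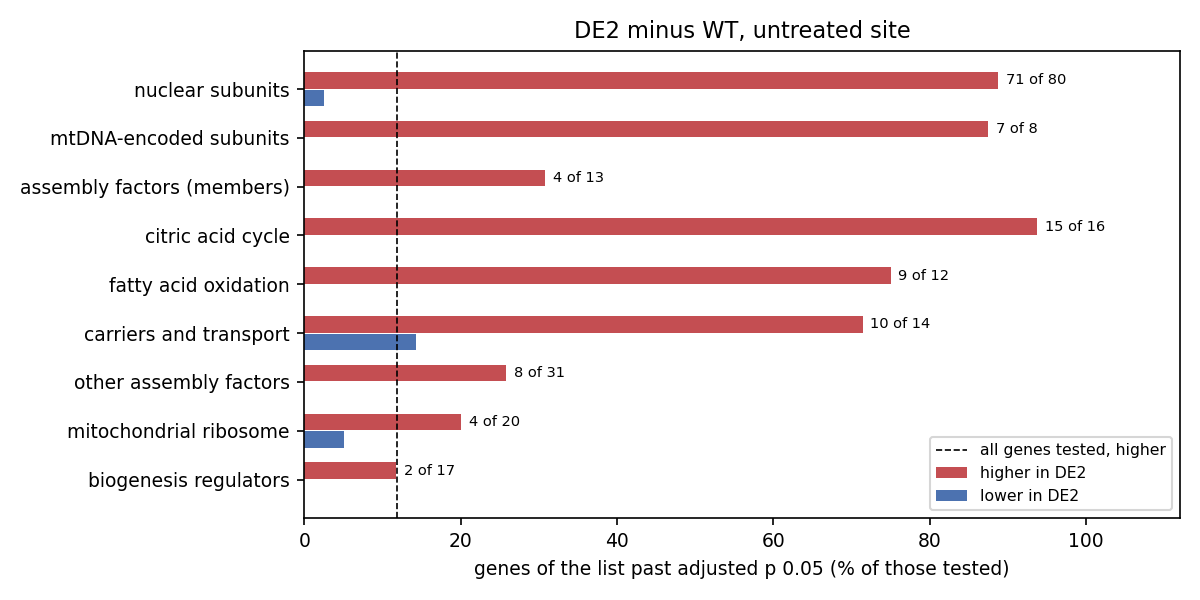
Percent of the tested genes of each list that were higher (red) or lower (blue) in DE2 than in WT at the untreated site at an adjusted p under 0.05; the dashed line is the 11.8% of all genes that were higher. Nuclear subunits (71 of 80), subunits encoded in mitochondrial DNA (7 of 8) and the citric acid cycle (15 of 16) had the highest shares, and biogenesis regulators (2 of 17) lay at the dashed line.

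After UVB in DE2, the same lists gave 15 of 16 citric acid cycle genes lower, 9 of 12 fatty acid oxidation genes lower and 1 higher, and 10 of 14 carriers lower and 3 higher, with Ucp2 again opposite at 1.15 ± 0.23 (adjusted p = 0.00218). These counts stand beside 13.4% of all genes lower and 14.4% higher in that comparison. At the irradiated site, 1 gene of the 6 lists differed between the genotypes, Ckmt1, a mitochondrial creatine kinase of non-muscle tissues (1.39 ± 0.28, adjusted p = 0.0141). Of all genes, 2.35% were higher and 0.608% lower in DE2 there. In WT after UVB, 0 genes of the 6 lists passed, beside 0.0198% of all genes higher and 0% lower. The muscle marker values given above apply to each of these lists, and their part in the lists' changes was not tested gene by gene.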

How the data were processed

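RNA from 12 skin libraries was read as gene counts. Each deposited file holds unnormalized counts per Ensembl identifier, made by the authors with HTSeq 2.0.2 on GRCm38 after Trimmomatic 0.39, Picard 3.1.0 and SAMtools 1.16, per the submitters' processing notes. The sources used here do not name the aligner, annotation release or strand setting, and without the last, overlapping antisense genes cannot be separated. Symbols and positions came from GENCODE on GRCm38 for 53360 of 53465 identifiers, and promoters from RefSeq.

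Counts were fitted in R 4.3.3 with edgeR 4.0.16 over all 12 libraries: its filter on low counts (15126 genes), TMM scaling, 1 mean per group, robust quasi-likelihood tests with 8 residual degrees of freedom, and Benjamini-Hochberg adjustment over all genes at 0.05. The common biological coefficient of variation was 35.8%. Standard errors were worked back from the test statistic. Levels per length divide CPM by the merged exons of a gene, which can exceed a single transcript, so ranks per length depend on the annotation. The procedure was tested on simulated data.

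Members, lists and tests were chosen with earlier results of these data known. Named are all members encoded in mitochondrial DNA, fixed isoform sets, per comparison up to 6 called members per direction with the largest change and a mean log2 CPM of at least 1, per complex the nuclear member highest per length and those with the smallest p, members under the filter, and up to 3 genes per pathway list, plus stated exceptions. Alternatives were other scalings and filters, DESeq2 1.42.0, limma 3.58.1 voom, fewer libraries and marker covariates. In a comparison of a single value, 3 libraries against 3 cannot pass the threshold in an exact permutation test, so none was made. Replicate numbers follow accession order and pair nothing.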

Additional observations from a re-analysis of the deposited data

Results flagged for a closer look

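For 15 named members the change after UVB differed between the genotypes by the interaction term of the edgeR fit (difference of log2 fold changes, DE2 minus WT). The difference was -2.17 for Cox7a1, -1.95 for Cox8b and -1.94 for Cox6a2, the 3 muscle isoforms of complex IV, and -1.90 for the assembly factor Ndufaf5. In complex II it was -1.77 for Sdha, -1.48 for Sdhd and -1.33 for Sdhb, and in complex I -1.65 for Ndufs1 and -1.41 for Ndufa9. In complex III it was -1.27 for Uqcrc2 and -1.20 for Uqcrfs1, and in ATP synthase -1.19 for Atp5b, -1.18 for Atp5g1 and -1.02 for Atp5o. Cox6a1 had the opposite sign, at 0.96. In WT the 15 log2 fold changes after UVB ran from 0.05 to 0.44, none past the threshold, so the differences come with falls in DE2 from 0.81 (Atp5o) to 1.82 (Cox7a1) on the log2 scale and a rise of 1.06 (Cox6a1). Skeletal muscle markers took 12.2% ± 3.54 (SD, n = 3) of counts in untreated DE2 and 3.73% ± 0.40 in irradiated DE2 libraries, and 4.68% ± 0.53 and 4.55% ± 3.02 in the same order in WT. With these markers as a covariate 0 of 104 members were called for the interaction, beside 2.01% of all genes. The covariate was highest in the untreated DE2 libraries and cannot be fully told apart from that group.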

How the results depend on the processing

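No paired analysis was possible because replicate numbers follow accession order and no label ties libraries to an animal or a day. Counts of called members stayed within 1.5 times of those reported under RLE scaling, TMM without the genes of mitochondrial DNA, no filter, a stricter filter, DESeq2, limma voom and fits on only the libraries compared; the last has no interaction. With the skeletal muscle covariate, 0 members passed for UVB in DE2, for genotype at the untreated site and for the interaction, at medians of -0.157, 0.331 and -0.281, and 6 of 67 called members changed sign for UVB in DE2, among them Cox6a2 (0.156) and mt-Nd3 (0.0995), as did 1 of 84 for genotype at the untreated site and 0 of 33 for the interaction. The untreated DE2 libraries held the highest values of this covariate, so it cannot be fully told apart from that group. A covariate of hair markers, added after seeing the data, also left 0 in these 3 comparisons, at medians of 0.642, -0.609 and 0.386, and moved the median for genotype at the irradiated site to -0.234. It turned the sign of 62 of 67, 77 of 84 and 26 of 33 called members, and 0 genes of all passed in each of these 3 comparisons. Untreated DE2 libraries have almost no hair RNA, so group and covariate cannot be told apart there. With total counts as scaling, genotype at the untreated site gave 45 calls (median 0.498) beside 25.1% of all genes. The interaction gave 12 (median -0.471) beside 10.5%, and UVB in DE2 a median of -0.530. The cause was not tested.

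Leaving out 1 library at a time gave 0 to 1 calls for UVB in WT and for genotype at the irradiated site, 41 to 83 for UVB in DE2, 49 to 91 for genotype at the untreated site and 5 to 67 for the interaction. The share of all genes called moved as well. In the same order of comparisons it was 0% to 0.0953%, 0.828% to 3.93%, 18.9% to 29.5%, 13.4% to 24.8% and 5.57% to 16.5%. Leaving out a pair of libraries (irradiated WT 2 with untreated DE2 1) gave 1, 1 and 58 calls for UVB in WT, genotype at the irradiated site and the interaction. These counts stand beside 0.123%, 4.87% and 13.8% of all genes. With counts divided by exon length, an alternative added later, Cox7a1 took 37.8%, 39.7%, 63.9% and 37.5% of its pair in untreated WT, irradiated WT, untreated DE2 and irradiated DE2, and Cox8b 37.3%, 77.9% and 41.2% in untreated WT, untreated DE2 and irradiated DE2. Without muscle marker genes in the denominator, members encoded in mitochondrial DNA took 2.83% of counts in untreated DE2, and nuclear members 2.55% in untreated WT and 4.23% in untreated DE2. Totals of 2809142 to 4741726 counts leave assembly factors and Cox4i2, Cox6b2, mt-Co2, mt-Atp6 and mt-Co3 the least certain.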
